A study of Zonotrichia albicollis with 38 samples.

Results

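The genes described here are those of microglia and macrophages, the resident immune cells of the brain and of its borders. A fixed list of 10 gene symbols was looked up in a gene count table of 15111 rows, and 7 of the 10 were found there by symbol. These were CSF1R, LY86, C1QB, PTPRC, P2RY12, P2RY13 and CX3CR1. No row matched C1QA, C1QC or CTSS by symbol or by gene ID, so these 3 were not analysed here. Each of the 7 had at least 1 read in every library. The genes were named by symbol, with no threshold on their values.

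RNA was sequenced from 19 wild males of the white-throated sparrow, Zonotrichia albicollis, a songbird whose males belong either to the white-striped (WS) or to the tan-striped (TS) plumage morph. The birds, 10 WS and 9 TS males, were caught in the breeding season on the day after a simulated intrusion into their territory, so that all groups share this exposure. From each bird 4 tissue punches per region were pooled, which gave 1 library from the hypothalamus (HYP) and 1 from the medial amygdala (MeA), 38 libraries in all. The HYP punches reached over several nuclei (ventromedial, paraventricular and anterior hypothalamus, and the caudal end of the medial preoptic area), and MeA made up most, not all, of the other punches. OTP, a transcription factor of hypothalamic neurons, lay between 10.5 and 17.1 CPM (reads relative to the library size) in HYP and reached at most 0.41 CPM in MeA. In the age codes of bird banding 10 birds were ASY, older than the second year, and 9 were SY, in the second year. Age went with morph, since 8 of the 10 WS birds but 2 of the 9 TS birds were ASY. The labels give a stage code E for 8 WS and 6 TS birds. The other 2 WS and 3 TS birds have the codes I, L or L/I, and the labels explain none of these codes.

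Microglia are the macrophages of the brain tissue itself. In mammals they survive only while CSF1R, a receptor tyrosine kinase, receives signals from its ligands CSF1 and IL34, and they sense nucleotides through P2RY12 and P2RY13 and the neuronal chemokine fractalkine through CX3CR1. They are also the main source of C1q in the mouse brain, the protein that starts the classical complement cascade and marks synapses for removal. PTPRC (CD45) is a phosphatase on the surface of white blood cells, and LY86 (MD-1) is a secreted partner of the receptor CD180 that tunes Toll-like receptor signalling.

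Library totals lay between 7150476 and 14482856 counted reads. For CPM, library totals were scaled by the trimmed mean of M values. Levels are compared between samples of 1 gene, never between genes, because the table carries no transcript lengths. The counts behind the values were small for some members. CSF1R had 129 to 432 reads per HYP library and 220 to 467 per MeA library, whereas P2RY13 had 1 to 13 and 3 to 17 reads. In the main fits P2RY13 passed the filter on low counts in no comparison, and CX3CR1, at 1 to 23 reads per HYP library, did not pass it within HYP. Some refits on fewer birds let a further member pass. So 6 of the 7 genes were tested between regions and in MeA, and 5 in HYP. For C1QB there are 2 candidate rows: the row that carries this symbol, used below, and LOC102068172, to which the current RefSeq gene table also gives the symbol C1QB. Which C1q chain each row counts was not established, and both are given where they bear on a result.

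All 6 genes tested were lower in HYP than in MeA. Of these, 5 passed the filter on low counts within each region, and CX3CR1 did so in MeA alone. LY86 stood at 0.120 of its MeA level and the other 5 at between 0.623 and 0.724 of theirs. The region comparison used edgeR's quasi-likelihood test with the bird as a block, Benjamini-Hochberg adjustment over 11935 genes and a threshold of 0.05. Regional differences were the rule in this table. Of all genes tested, 80.2% were called and 38.2% were called lower in HYP, and the median log2 fold change was 0.02, against -0.67 over the 6 members.

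CSF1R, the receptor on which microglia depend, had a lowest, median and highest level of 9.92, 21.6 and 35.8 CPM in the 19 HYP libraries, against 18.4, 35.7 and 50.6 CPM in the 19 MeA libraries. The ranges of the regions overlapped, but every bird had less CSF1R in its HYP than in its MeA. The mean was 22.3 ± 6.03 CPM in HYP and 34.9 ± 7.52 CPM in MeA (SD, n = 19 each). The log2 fold change of HYP over MeA was -0.66 with a standard error of 0.050 (edgeR adjusted p = 1.43e-11).

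P2RY12, the nucleotide receptor that distinguishes microglia from most other macrophages in mammals, was likewise lower in HYP in 19 of 19 birds. It had 3.65, 6.22 and 8.11 CPM as the lowest, median and highest level in HYP, against 5.52, 9.99 and 14.1 CPM in MeA. Its log2 fold change was -0.56 (standard error 0.059, edgeR adjusted p = 5.75e-09). A fall in every bird was seen in 20.1% of all genes tested.

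C1QB had 5.595, 7.69 and 11.4 CPM as the lowest, median and highest level in HYP, against 8.60, 12.4 and 19.1 CPM in MeA. It was lower in HYP in 18 of 19 birds. The log2 fold change was -0.68 (standard error 0.068, edgeR adjusted p = 2.03e-09). The other candidate row, LOC102068172, gave a log2 fold change of -0.69 and was lower in HYP in 19 of 19 birds.

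PTPRC and CX3CR1, also called, had few reads. CX3CR1 thus entered the comparison through the region where it is higher, and its call adds no support to the count of members. PTPRC averaged 3.32 ± 0.803 CPM in HYP and 4.64 ± 1.59 CPM in MeA (SD, n = 19 each), and 16 of 19 birds had less in HYP (log2 fold change -0.47, edgeR adjusted p = 0.000144). CX3CR1 averaged 0.848 ± 0.389 CPM in HYP and 1.37 ± 0.545 CPM in MeA (SD, n = 19 each), and 15 of 19 birds had less in HYP (log2 fold change -0.67, edgeR adjusted p = 0.000798). P2RY13, which sits beside P2RY12 in the genome, averaged 0.550 ± 0.249 CPM in HYP and 1.01 ± 0.427 CPM in MeA, with 17 of 19 birds lower in HYP. It was tested only when the filter on low counts was dropped (log2 fold change -0.85, edgeR adjusted p = 0.000229).

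**Figure D1:**
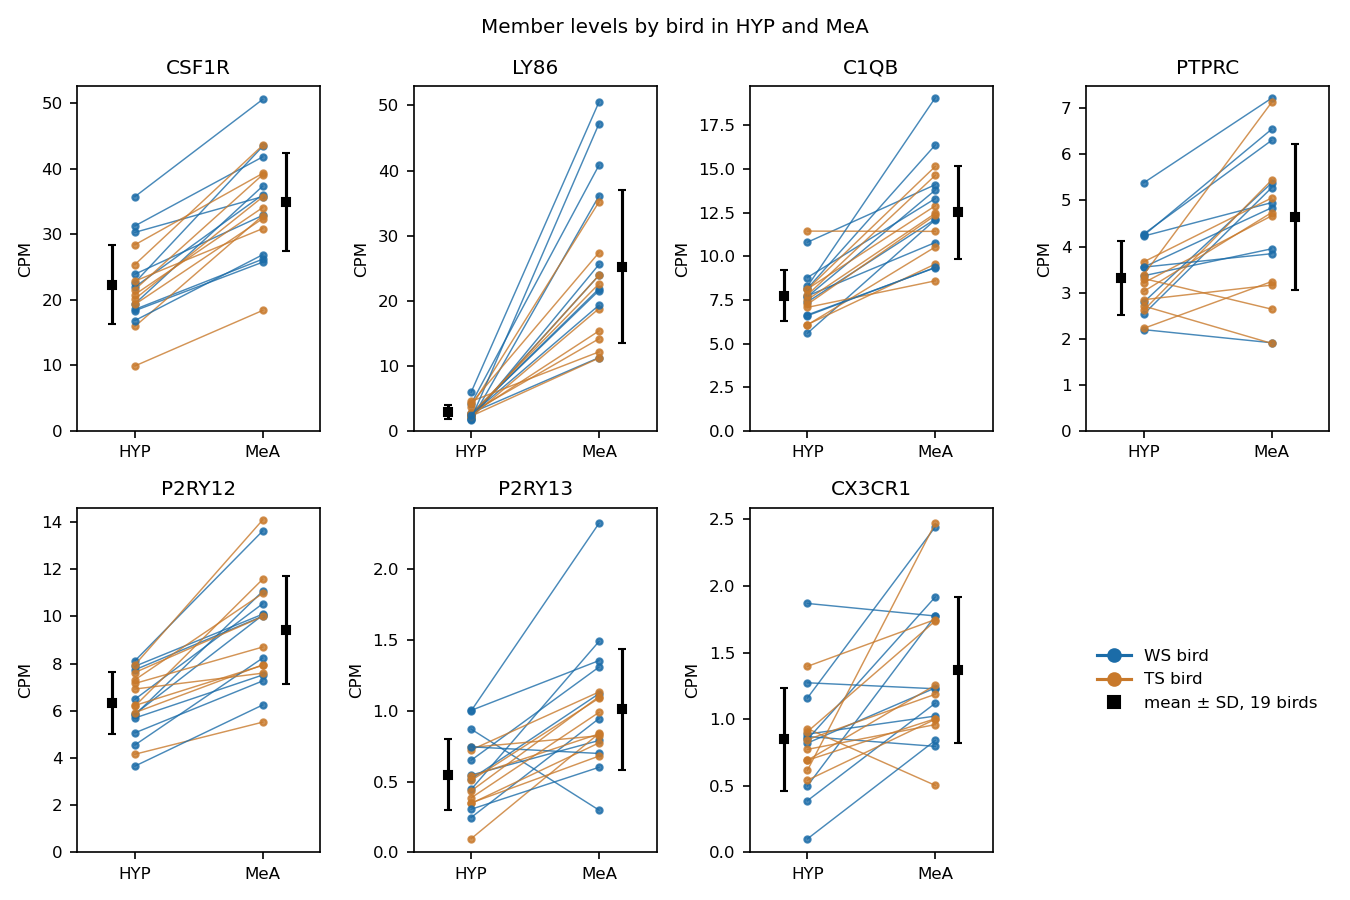
Level of each of the 7 genes in CPM (vertical axis, from 0) in HYP (left) and MeA (right); each line joins the 2 libraries of 1 bird, blue for WS and orange for TS, and black squares with bars are the mean ± SD of 19 birds. Lines slope up to MeA in all 19 birds for CSF1R, LY86 and P2RY12, and only for LY86 are the 2 regions fully apart.

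LY86 had the largest fitted regional difference of the members. Its lowest, median and highest levels were 1.64, 2.55 and 5.93 CPM in HYP, against 11.2, 22.6 and 50.5 CPM in MeA, so that the highest HYP library lay below the lowest MeA library. Libraries of the regions were fully apart, with either region the higher, for 21% of all genes tested. The mean was 2.89 ± 1.12 CPM in HYP and 25.2 ± 11.8 CPM in MeA (SD, n = 19 each), an 8.36-fold lower level in HYP by the fit (log2 fold change -3.06, standard error 0.151, edgeR adjusted p = 3.81e-15). Within birds, the log2 difference of HYP minus MeA ran between -4.62 and -1.40 for LY86, with 0.1 CPM added to each value. It ran between -1.04 and -0.24 for CSF1R and went no lower than -1.20 for C1QB, -1.05 for PTPRC and -0.91 for P2RY12. The members with the fewest reads spread wider, between -2.22 and 0.77 for CX3CR1 and between -2.26 and 1.28 for P2RY13, and so overlapped with LY86.

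The receptor partner of LY86 and genes of Toll-like receptor signalling were looked at beside it. CD180, the receptor that LY86 binds, had 1 read in all HYP libraries together and 0 in all MeA libraries, which is too few to compare. LY96 (MD-2), the related partner of TLR4, averaged 0.206 ± 0.177 CPM in HYP and 8.31 ± 4.52 CPM in MeA (SD, n = 19 each; log2 fold change -5.29, edgeR adjusted p = 3.10e-15). At that level in HYP, LY96 passed the filter on low counts through MeA alone, so its call adds no support to the count that follows. Among the 5 tested genes of the Toll-like receptor list, 2 were lower in HYP (LY96 and TLR7) and 3 were higher (TLR3, UNC93B1 and IRAK4), and the median log2 fold change was 0.25. Within HYP 4 of the 5 passed the filter on low counts, and within MeA 4 did. A call that rests on HYP alone likewise adds no support to the higher side. TLR3 averaged 1.66 ± 0.468 CPM in HYP and 0.82 ± 0.48 CPM in MeA (SD, n = 19 each). TLR3 and TLR7 sense RNA in endosomes, where UNC93B1 delivers them.

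Genes that act around CSF1R were mixed. IL34, the CSF1R ligand that neurons make, averaged 19.6 ± 1.86 CPM in HYP and 27.4 ± 4.01 CPM in MeA (SD, n = 19 each; log2 fold change -0.47, edgeR adjusted p = 1.16e-07). CSF1, the other ligand, averaged 13.1 ± 1.63 CPM in HYP and 14.3 ± 2.33 CPM in MeA and was not called (log2 fold change -0.12, edgeR adjusted p = 0.105), although it was when either of 2 birds was left out (log2 fold change -0.15 and -0.14, edgeR adjusted p = 0.0201 and 0.0392). SPI1, the transcription factor PU.1 on which macrophage fate depends, was lower in HYP at 2.75 ± 0.680 CPM, against 4.60 ± 1.07 CPM in MeA. Of 8 tested genes in the list of CSF1R ligands and myeloid transcription factors, 5 were lower in HYP and 2 higher. The list also holds genes that neurons and other cells express, such as MEF2C (log2 fold change -1.18) and CEBPA (1.92).

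Of 11 other microglial genes tested, 7 were lower in HYP and 2 were higher, with a median log2 fold change of -0.25. Within HYP 10 of them passed the filter on low counts, against 11 within MeA. A call that rests on MeA alone adds no support to the count of lower genes. The lower ones, with log2 fold changes of HYP over MeA in brackets for these and the following lists, included TMEM119, a surface protein that marks microglia in mammals (-1.19), the integrin chain ITGB2 (-0.67), the lysophospholipid receptor GPR34 (-0.63) and the engulfment receptor MERTK (-0.99), which astrocytes also express. Purinergic signalling genes were lower in HYP in 7 of 9 tested cases and higher in none. They included the ATP-degrading enzyme ENTPD1 (-1.35), and ENTPD3 (-3.11) and ENTPD2 (-1.70), which are not restricted to microglia. In the complement list 6 of 9 were lower and 3 higher. C1R and C1S, the proteases that join C1q in the C1 complex, were lower in HYP (-0.57 and -1.46), while CD59, which shields cells from the terminal complement complex, was higher (2.48), as was MASP1 (2.87).

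Leukocyte signalling genes were lower in HYP in 9 and higher in 6 of 15 tested cases. Within MeA 14 of them passed the filter on low counts, against 15 within HYP. INPP5D (-2.32) and ARHGAP15 (-2.67) were among the lower ones, and the kinases BTK (1.12) and SYK (1.36) were higher. Of 18 lysosomal and antigen presentation genes tested, 11 were higher and 6 lower in HYP, where 42.0% of all genes tested were called higher. PSAP, the precursor of the saposins (0.38), was higher, whereas CD74 (-0.59) and B2M (-0.85), of the antigen presentation pathway, were lower. The inflammatory list split evenly, with 4 higher, IL1B (0.55) and IL18 (0.76) among them, and 4 lower of 10 tested.

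Markers of other cells moved between the regions as well. All 9 oligodendrocyte genes were lower in HYP (median log2 fold change -1.21, summed level 767 to 2360 CPM in HYP and 2110 to 6440 CPM in MeA). Of 6 tested border macrophage genes 5 were lower (median -0.83, summed level 12.9 to 23.0 CPM in HYP and 21.7 to 45.2 CPM in MeA), and MARCO was higher (0.48). LYVE1 had the lowest fold change (-3.65). At a mean of 0.148 CPM in HYP it passed the filter on low counts through MeA alone, so its call adds no support to this count. Within MeA 5 of the 6 border macrophage genes passed the filter. A call that rests on HYP alone adds no support either. Blood and vessel lists also leaned to MeA. Of 5 red cell and thrombocyte genes 4 were lower in HYP (median -0.71, summed level 18.3 to 33.8 CPM in HYP and 20.2 to 126 CPM in MeA), of 11 endothelial genes 9 were (median -0.25), and of 9 mural genes 7 were (median -0.90). The granulocyte and monocyte list was lower in 1 and higher in 2 of 3 tested cases (median 0.19). CSF3R (1.06) and MMP9 (0.19) were the higher ones. The lower one, MPO, an enzyme of granulocytes, averaged 0.135 ± 0.117 CPM in HYP and 13.7 ± 10.3 CPM in MeA (SD, n = 19 each), a log2 fold change of -6.51. At that level in HYP, MPO passed the filter on low counts through MeA alone. The T and B cell list had 2 of 3 tested genes lower, BLNK (-1.31) and CD2 (-0.54), of which BLNK is also found in macrophages. Of the remaining lists, leptomeningeal genes were lower in HYP in 5 and higher in 1 of 7 tested cases (median -1.84), astrocyte genes lower in 6 and higher in 1 of 8 (-0.46), and neuronal genes lower in 5 and higher in 4 of 9 (-0.54). Oligodendrocyte precursor genes were higher in 3 of 3 (0.51), and choroid plexus and ependymal genes lower in 1 and higher in 4 of 6 (0.68). The filter within HYP kept 6 leptomeningeal genes, and that within MeA kept 5 choroid plexus and ependymal genes. Calls that rest on 1 region add no support to these counts. The part of these other cells in the members' regional difference was not tested. In tissue punches, fewer cells of a type and less RNA per cell cannot be told apart.

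**Figure D2:**
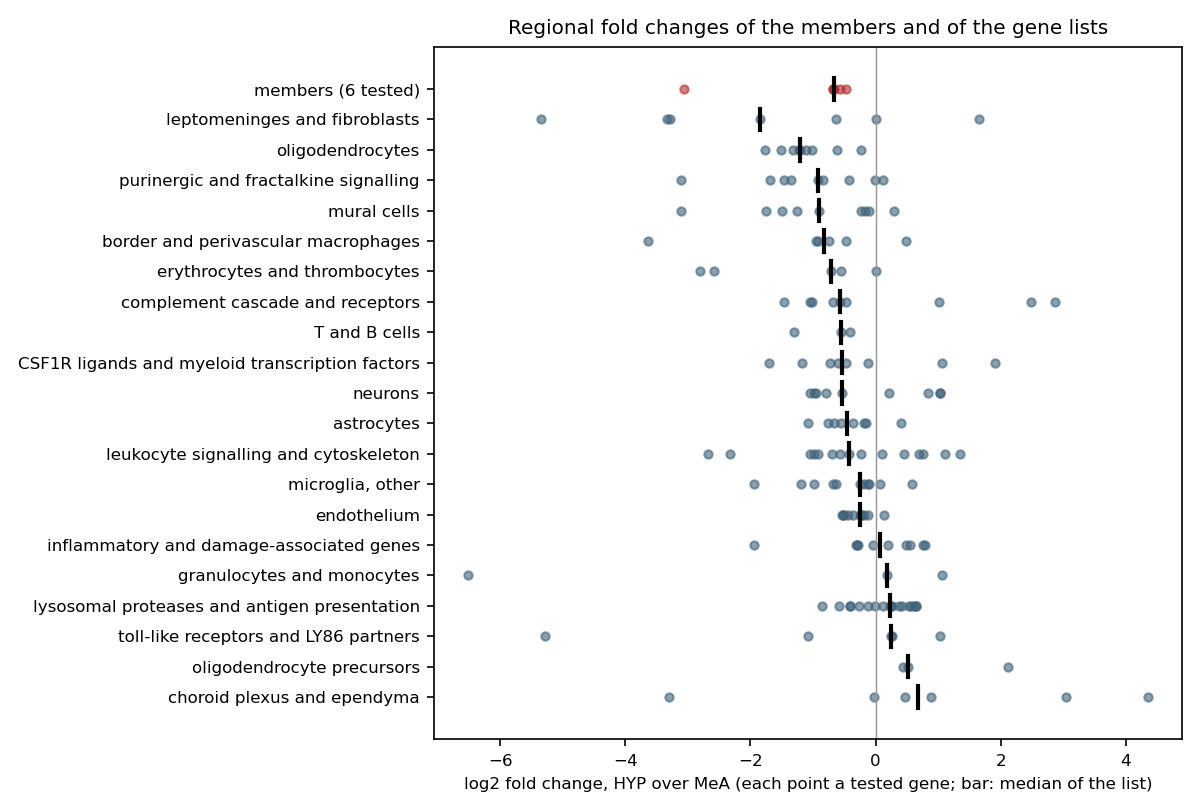
Log2 fold change of HYP over MeA (horizontal axis) for each tested gene of the microglia and macrophage set (red, top row) and of 20 gene lists (blue), with a black bar at each list's median. All 6 members lie left of 0, LY86 at -3.06 far from the other 5, and many lists of other cell types also have medians left of 0.

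No member was called between the morphs in either region. WS and TS birds were compared within each region by edgeR, and 0 of 5 tested members were called in HYP and 0 of 6 in MeA. Over all genes, 0.796% were called in HYP and 0.523% in MeA. At an unadjusted p under 0.05 there were 905 of 11930 genes in HYP and 1033 of 11672 in MeA. Among them were LY86 in MeA and the other candidate row for C1QB, LOC102068172, in HYP (log2 fold change 0.23, edgeR adjusted p = 0.657, against 0.01 for the row named C1QB). DESeq2 called no member in either region, and over all genes it called 140 in HYP and 118 in MeA.

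CSF1R averaged 23.9 ± 6.42 CPM in 10 WS and 20.5 ± 5.34 CPM in 9 TS hypothalami, and 35.7 ± 8.15 CPM in WS and 34.1 ± 7.13 CPM in TS amygdalae (mean ± SD). The log2 fold change of WS over TS was 0.23 in HYP (standard error 0.16) and 0.07 in MeA (standard error 0.14). PTPRC had 3.61 ± 0.957 CPM in WS and 2.999 ± 0.446 CPM in TS hypothalami (log2 fold change 0.27, edgeR adjusted p = 0.757). P2RY12 differed by -0.12 in HYP and 0.02 in MeA, and C1QB by 0.01 and 0.12.

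LY86 was the member with the largest morph difference. In MeA its lowest, median and highest levels were 11.3, 24.7 and 50.5 CPM in WS birds, against 11.2, 18.8 and 35.2 CPM in TS birds. The morphs overlapped over most of their range, although the 4 highest libraries were all WS. The mean was 29.8 ± 13.1 CPM in WS (n = 10) and 20.1 ± 7.94 CPM in TS (n = 9), a log2 fold change of 0.57 with a standard error of 0.25, and edgeR's adjusted p was 0.533. In HYP it averaged 2.80 ± 1.31 CPM in WS and 3.001 ± 0.916 CPM in TS birds (log2 fold change -0.10). The morph difference in HYP minus that in MeA was -0.67 for LY86 (edgeR interaction test, adjusted p = 0.418). No member and no list gene was called in that test, in which 0.0251% of all genes were.

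No age difference was called for any member. In these fits, which held the morph constant, ASY and SY birds were compared in each region, and 0% of all genes were called in HYP, in MeA or in the interaction of age with region. At an unadjusted p under 0.05 there were 562, 418 and 485 genes, none of them a member, and DESeq2 called 1, 0 and 1 genes, again none of them a member. No gene of the 20 lists was called by edgeR for age or for morph in either region. The members' log2 fold changes of ASY over SY lay between 0.02 for C1QB and 0.31 for LY86 in HYP, and between -0.01 for C1QB and 0.42 for CX3CR1 in MeA. LOC102068172, the other C1QB candidate, differed by -0.07 in HYP and -0.25 in MeA, and P2RY13, fitted without the filter, by -0.20 and -0.31. PTPRC in MeA, for example, averaged 5.24 ± 1.21 CPM in 10 ASY birds and 3.98 ± 1.75 CPM in 9 SY birds (log2 fold change with morph held constant 0.38, standard error 0.30). Leaving out 1 bird at a time moved this value to between 0.09 and 0.63, and the 0.42 of CX3CR1 to between 0.12 and 0.68. With only 2 SY birds among the WS and 2 ASY birds among the TS males, age and morph could be separated only weakly.

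**Figure D3:**
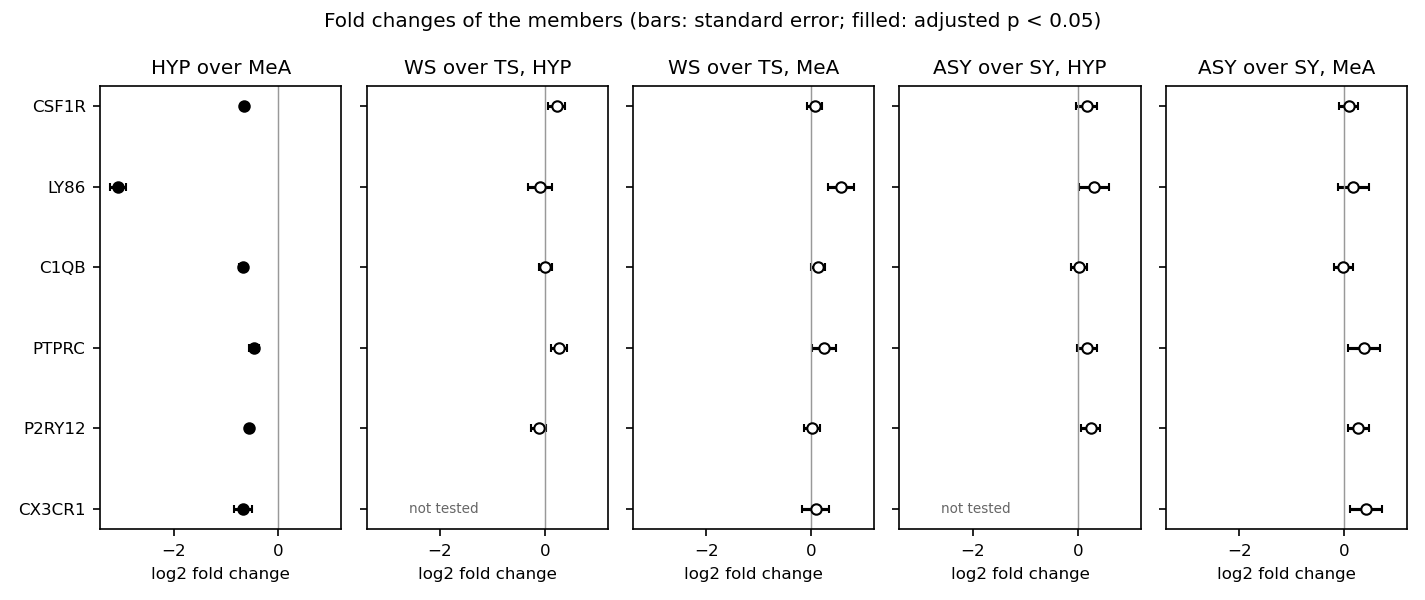
Log2 fold changes (horizontal axis) of the 6 testable genes between regions, between morphs in each region and between age classes in each region, with standard errors as bars and filled points for edgeR adjusted p below 0.05. Only the points of the region panel are filled; the LY86 point at 0.57 in the panel of WS over TS in MeA is the farthest from 0 among the open points.

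A bird's level of some of these genes in one region went with its level in the other. Over the 19 birds, the log2 CPM of CSF1R in HYP correlated with that in MeA at a Pearson r of 0.838 and a Spearman rho of 0.767 (permutation test with 100000 resamples, adjusted p = 0.00118 and 0.0063 over 11434 genes). The bird with the least CSF1R in HYP (9.92 CPM), a TS male, also had the least in MeA (18.4 CPM), and the WS male with the most in HYP (35.8 CPM) had the most in MeA (50.6 CPM). Without the 2 birds farthest from the HYP median, r was 0.627, and it was 0.794 within the WS and 0.898 within the TS birds. With the main axis of variation of each region removed it was 0.462 and no longer called (adjusted p = 0.134).

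P2RY12 correlated between regions at r = 0.753 and rho = 0.656 (permutation adjusted p = 0.00237 and 0.025), with r = 0.579 without the 2 farthest birds, 0.822 within WS and 0.771 within TS birds. PTPRC gave r = 0.604 (permutation adjusted p = 0.0309) but a rho of 0.539 that was not called (permutation adjusted p = 0.0785), and r = 0.418 without the 2 farthest birds. C1QB was called by rank alone, with rho = 0.675 (permutation adjusted p = 0.019) and r = 0.444 (permutation adjusted p = 0.138). The other candidate row, LOC102068172, was called by neither measure (rho = 0.139 and r = 0.354, permutation adjusted p = 0.703 and 0.259). LY86 gave r = 0.130 and rho = -0.049 (permutation adjusted p = 0.708 and 0.902). By Pearson's r, then, 3 of 5 members were called positive, against 25.3% of all genes tested, and the median r over all genes was 0.372. CSF1R ranked 261 and P2RY12 ranked 766 of 11434 genes by r, so that a high correlation between regions was not confined to these genes. The 2 libraries of a bird share the animal and its handling.

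**Figure D4:**
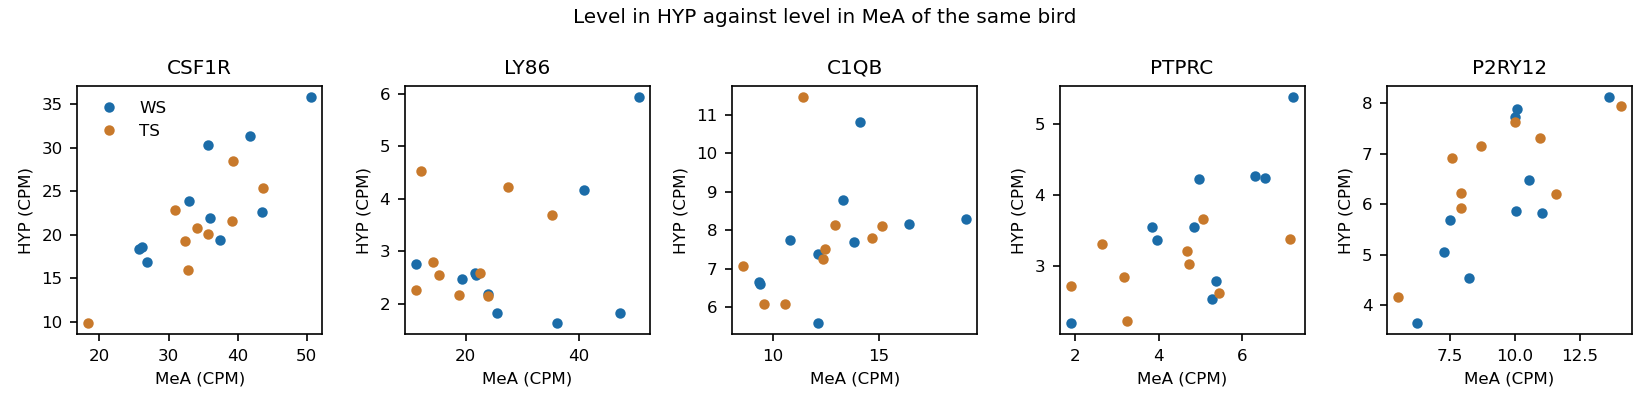
Level in HYP (vertical axis, CPM) against level in MeA of the same bird (horizontal axis, CPM) for the 5 genes tested in both regions, WS blue and TS orange. CSF1R and P2RY12 rise together in the 2 regions (r = 0.838 and 0.753 on the log2 scale), whereas LY86 shows no such relation (r = 0.130).

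Within a region, the members varied together to a moderate degree, except for LY86 in MeA. In HYP all 10 pairs of the 5 tested genes correlated positively over the 19 birds, with r between 0.296 and 0.635 and a median of 0.418. In MeA 12 of 15 pairs were positive, and the 3 negative ones all involved LY86, with CSF1R at -0.388, with P2RY12 at -0.207 and with C1QB at -0.135. Over all 15 MeA pairs the median r was 0.287, lower than in HYP. The gene sets differ, since the MeA pairs here and below take in CX3CR1, which the HYP pairs lack. The 10 MeA pairs without LY86 had a median r of 0.390 and the 5 with it -0.135, a split made after the values were seen. In HYP the pairs without LY86 had a median of 0.397. Over all pairs of tested genes the median r was -0.0008 in HYP and -0.0016 in MeA. Positive were 35492520 of 71156485 pairs in HYP and 33915133 of 68111956 in MeA. The member median without LY86 was reached by 6.11% of all pairs in HYP and 9.70% in MeA. All pairs share the same libraries.

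With CSF1R as the anchor, no correlation of another member passed adjustment over all genes. In HYP, C1QB (r = 0.635, permutation adjusted p = 0.506) and PTPRC (r = 0.634, permutation adjusted p = 0.484) ranked 48 and 49 of 11929 genes, and 0% of all genes were called. LY86 (r = 0.44) and P2RY12 (r = 0.42) ranked lower in HYP, at 554 and 676. The other candidate row for C1q, LOC102068172, ranked 6 there (r = 0.753, permutation adjusted p = 0.352), and fell to r = 0.499 without the 2 birds farthest from the CSF1R median. In MeA, C1QB (r = 0.572, permutation adjusted p = 0.111), P2RY12 (r = 0.484) and CX3CR1 (r = 0.408) were positive. PTPRC was only weakly so (r = 0.121) and LY86 was negative (r = -0.388). Of 11671 genes in MeA, C1QB ranked 691, P2RY12 1230, CX3CR1 1778, PTPRC 4274 and LY86 9918. LOC102068172 gave r = 0.385 in MeA (rank 1937, permutation adjusted p = 0.323), and -0.093 without the 2 birds farthest from the CSF1R median. Of all genes 2.45% were called in MeA, none of them a member.

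**Figure D5:**
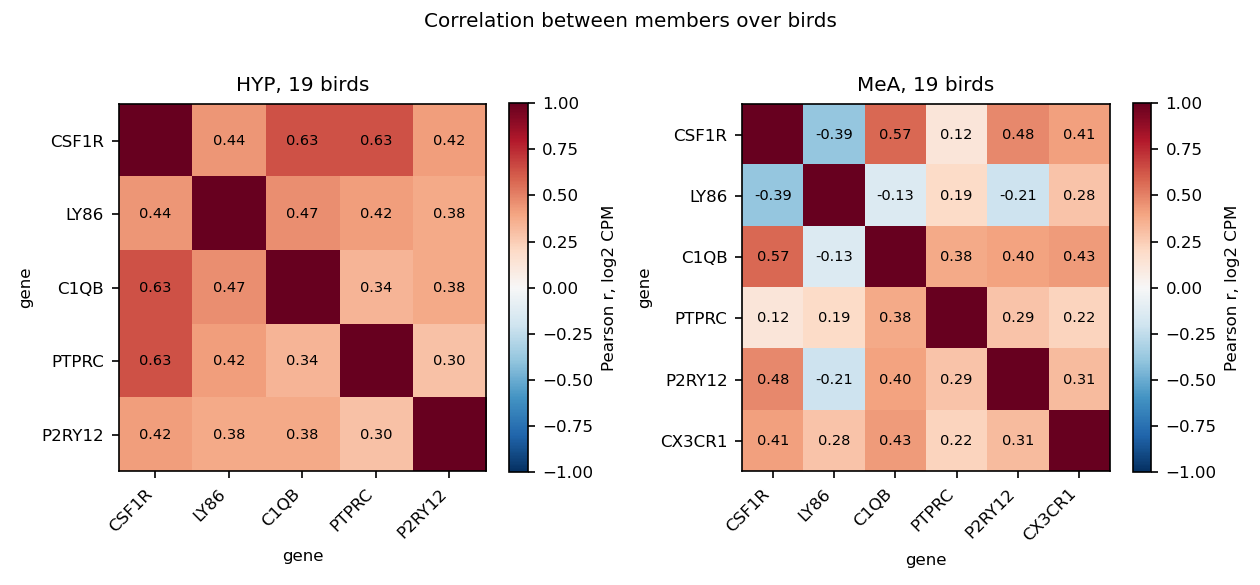
Pearson correlation of log2 CPM over 19 birds for each pair of tested genes in HYP (left, 5 genes) and MeA (right, 6 genes), red for positive and blue for negative values. The HYP panel is red throughout, between 0.296 and 0.635; in the MeA panel LY86 has 3 blue cells, the lowest at -0.388 with CSF1R.

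CSF1R and LY86 were then set against the mean log2 CPM of each gene list, the library total and the first 2 components of variation, 46 relations per region. LY86 was added to this comparison after its values had been seen. The 2 farthest birds here were those farthest from the median of the list or component in question, so they could differ between relations. In HYP only 1 relation was called. CSF1R rose with the border macrophage list (r = 0.809, rho = 0.723, permutation adjusted p = 0.00184 and 0.0294), at r = 0.632 without the 2 farthest birds. In MeA the border macrophage list gave r = 0.195 (permutation adjusted p = 0.574). Each list mean took only the genes that passed the filter on low counts in that region. The border macrophage mean held 5 genes in each region, but the gene sets differed. LYVE1 was in the MeA mean alone, and the HYP mean in turn held a gene that the MeA mean lacked. With the list of other microglial genes (10 in HYP and 11 in MeA) CSF1R gave r = 0.588 in HYP and 0.157 in MeA (permutation adjusted p = 0.171 and 0.664). In MeA CSF1R ran against mural cell genes (r = -0.778, rho = -0.654, permutation adjusted p = 0.00598 and 0.0289), at r = -0.552 without the 2 farthest birds. CSF1R also ran against astrocyte genes there (r = -0.671, rho = -0.732, permutation adjusted p = 0.0239 and 0.0216), at r = -0.606 without the 2 farthest for that list. With the list of CSF1R ligands and myeloid transcription factors it rose (r = 0.651, rho = 0.681, permutation adjusted p = 0.0304 and 0.0289), at r = 0.594 without the 2 farthest for that list. LY86 in MeA rose with astrocyte genes (r = 0.635, rho = 0.665, permutation adjusted p = 0.0488 and 0.0289; r = 0.542 without the 2 farthest birds). With the first component of variation in MeA, whose sign is arbitrary, CSF1R was called by rank alone (absolute r = 0.594 and rho = 0.667, permutation adjusted p = 0.061 and 0.0289; absolute r = 0.729 without the 2 farthest birds). Depth was not a called correlate, with r between CSF1R and the library total at 0.070 in HYP and -0.369 in MeA. The part of tissue composition in these relations was not tested.

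The genes whose variation over birds was most like that of the members were ranked by the lower of their mean r with the tested members in HYP and in MeA. GPR34, the microglial lysophospholipid receptor, came first of 11434 genes (mean r 0.492 in HYP and 0.431 in MeA), ITGB2, the leukocyte integrin chain, came next (0.424 and 0.440), and DOCK8, an activator of the GTPase CDC42 in immune cells, followed (0.406 and 0.395). Also among the first 10 were HASPIN (LOC102061746), FAP, NSUN7, NXNL2, PAPD4 and GXYLT2, with values of the lower mean r between 0.347 and 0.369. By the same measure, in which a member's own comparison is left out, C1QB ranked 14, P2RY12 98, PTPRC 135, CSF1R 140 and LY86 5132. The other candidate row for C1QB, LOC102068172, ranked 2034, with a mean r of 0.326 in HYP and 0.067 in MeA.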

How the data were processed

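The 38 libraries were made by the authors with a TruSeq RNA kit, per the labels' protocols. Of strand use and genome build, nothing was found in the labels or file headers. Tools named in the submitters' processing notes, without roles, are STAR, Novoalign, HTSeq, SAMtools, GATK and DESeq2. The deposited count table holds whole read counts per gene, not normalized, and the authors' deposited variance-stabilized values, on a log2 scale, served only as an alternative. From 2 columns of no listed sample nothing was used.

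Counts were scaled by the trimmed mean of M values, filtered with filterByExpr and tested by edgeR's quasi-likelihood F test (edgeR 4.0.16, R 4.3.3), with Benjamini-Hochberg adjustment over all genes tested and a threshold of 0.05. Region and interaction fits had the bird as a block, since the same animals gave both regions; over all genes the median correlation between the 2 regions of a bird was 0.372. Correlations used log2 CPM with a prior count of 1 and 100000 permutations. The tests were checked on simulated data. The tests of members and named list genes were recomputed with other scaling, filters, covariates and tools and without each bird; pair and list correlations were not. DESeq2 1.42.0 and limma 3.58.1 were alternatives. Of 4637 rows with a LOC identifier, 1583 were given a symbol by the RefSeq gene table (assembly bZonAlb1.hap1). That table was used for names and for which genes neighbour each other.

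The members and the 20 gene lists were chosen with earlier results of these data known. The genes named were every member, from each list at most 3 called genes with the lowest p, and the 10 genes most like the members; other list genes were named for their role, after their values were seen. Some genes that this rule takes in are not reported here. Replicates are separate birds.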

Additional observations from a re-analysis of the deposited data

Results flagged for a closer look

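In 28 sets of libraries (7 genes in each morph and region) the highest and lowest value were compared with their nearest neighbour, and 3 stood apart by more than Dixon's limit; chance flags about 5% of such sets. CSF1R in MeA of TS birds was 18.4 CPM in one bird, against 30.9 CPM in the next lowest bird. The same bird was the lowest for CSF1R in HYP as well, at 9.92 CPM. C1QB in HYP of TS birds was 11.4 CPM in one bird, against 8.13 CPM in the next highest. It was the one bird whose C1QB was not lower in HYP than in MeA. CX3CR1 in HYP of TS birds was 1.40 CPM in one bird, against 0.93 CPM in the next highest, a value that rests on few reads. No member's morph or age effect was called as different between the regions.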

How the results depend on the processing

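In the region comparison 6 members were called lower in HYP under each alternative that kept the filter, and with each single bird left out. The same 6 were called without the replicate block, with the pairing of libraries by bird ignored. Without the filter 7 of 7 were. These counts take in CX3CR1, which passed the filter within MeA alone, and the last one P2RY13, which has few reads. The calls of CX3CR1 and P2RY13 add no support to them. Of 1950 refits of the 75 list genes that the naming rule or the text takes up in this comparison, 0 turned sign, 3 lost a call and 2 gained one. No member was called for morph or age under any alternative, including leaving out each bird (0 in each). Counts over all genes moved more. For morph in HYP they were 45 in birds of stage E alone and 51 with age class as a covariate, against 95; for morph in MeA 118 by DESeq2, 16 in stage E birds and 18 with the age covariate, against 61; for morph by region 17 by DESeq2, against 3; for age in HYP 1 without the filter and 1 by DESeq2, and for age by region 1 by DESeq2, against 0. With the first component of variation removed, a setting chosen after seeing the data, 0 genes correlated with CSF1R in MeA, against 286, and 2 of 3 members kept a called correlation between regions. The cause was not tested.

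Among uncalled members the sign turned in these settings, all without a call. Morph in HYP: C1QB -0.0052 with the age covariate. Morph in MeA with the age covariate: PTPRC -0.0052, P2RY12 -0.16, CX3CR1 -0.15. Morph by region: PTPRC 0.022 without the replicate block, and CX3CR1 -0.011 without the filter, -0.063 by DESeq2, -0.16 by limma-voom. Age in HYP: within TS birds CSF1R -0.032, C1QB -0.10 and PTPRC -0.037, and C1QB -0.0052 with the stage covariate. Age in MeA: within TS birds CSF1R -0.048 and PTPRC -0.14, within WS birds LY86 -0.32 and C1QB 0.21, and C1QB 0.067 without a morph term. Age by region: CX3CR1 0.000608 with relative log expression factors, 0.019 without the filter, 0.11 by DESeq2, 0.032 without the replicate block, 0.036 by limma-voom.

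With single birds left out the values that turned sign ranged from -0.057 to 0.10 for C1QB in the morph fit of HYP; in that of MeA from -0.014 to 0.12 for CSF1R, -0.056 to 0.11 for P2RY12 and -0.036 to 0.24 for CX3CR1; for morph by region from -0.10 to 0.081 for PTPRC and -0.19 to 0.13 for CX3CR1; for age in HYP from -0.050 to 0.086 for C1QB; for age in MeA from -0.020 to 0.14 for CSF1R, -0.084 to 0.54 for LY86 and -0.17 to 0.13 for C1QB; for age by region from -0.37 to 0.29 for LY86, -0.063 to 0.13 for C1QB, -0.084 to 0.047 for P2RY12 and -0.42 to 0.69 for CX3CR1. The correlation of CSF1R with PTPRC in MeA was -0.066 within TS birds and ran from -0.008 to 0.28 with single birds left out, and that of LY86 between regions ran from -0.13 to 0.28. Low read counts limit P2RY13 and CX3CR1 most.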
